A study of Mus musculus with 12 samples.

Results

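The interleukin-1 family and its receptors were followed here through 8 genes in mouse bone marrow monocytes: Il1a, Il1b, Il1rn, Il18, Il18bp, Il1r1, Il1r2 and Il1rap. They were chosen by name, and all 8 were found among the 53819 genes of each library. Of those genes, 26048 had a read in any library and 13151 passed the filter on low counts and were tested, the 8 genes among them. All cells were labelled as monocytes from the marrow of wild-type C57Bl6J mice, and RNA was sequenced in 12 libraries, 3 in each of 4 groups. The platelet plus LPS group was given lipopolysaccharide (LPS, a bacterial cell wall component) after a night with platelets and a wash. The LPS group had LPS without platelets, the platelet group had the night with platelets without LPS, and the untreated group had neither. Doses, the length of LPS exposure and the origin of the platelets were not given in the sources used here. Nothing in the labels says whether replicates came from separate mice or cultures, so p-values here reflect the variation among these libraries and no more, and that variation may be technical.

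Interleukin-1 alpha and interleukin-1 beta are cytokines that start inflammation through a shared receptor, and monocytes are a main source of both. Their transcription is low in resting cells and is switched on when LPS engages Toll-like receptor 4; interleukin-1 beta and interleukin-18 are then made as inactive precursors that caspase-1 cuts in the inflammasome. A pair of brakes acts outside the cell: the receptor antagonist encoded by Il1rn occupies the interleukin-1 receptor without signalling, and the binding protein encoded by Il18bp sequesters interleukin-18. Transcript counts measure none of the cleavage, release or binding steps.

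Library totals were between 20060867 and 32155727 counts, so that 3 reads correspond to between 0.0854 and 0.163 CPM (reads scaled to a common library total). The 10 monocyte and macrophage markers were all tested, and their summed level was between 33319 and 42150 CPM in the 12 libraries, while the T and NK cell markers Cd3e and Ncr1 had no read anywhere. Platelet replicate 1 stood apart from its 2 replicates, as a chi-square over genes divided by its degrees of freedom was 74.1 and 81.8 against them and between 6.54 and 20.8 for every other pair of replicates. Its description field also reads "Control" while its title and treatment name platelets. Fits were therefore repeated without it for the interleukin-1 family and receptor genes named above, and several of their results are given both ways. For marker genes and the further ligand, receptor, processing and signalling genes, results are given only with this library included. These are bulk samples, in which fewer cells of a type and less RNA per cell cannot be told apart.

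The 2 genes with the widest span of levels were Il1a and Il1b, and the gene with the narrowest among the well-counted members was Il1rap. The 250 bases before the RefSeq transcript start of these 3 genes are printed because they set the 2 members that moved most beside one that moved little. They lie at chr2:129309973-129310222 on the minus strand for Il1a, at chr2:129371140-129371389 on the minus strand for Il1b and at chr16:26581455-26581704 on the plus strand for Il1rap, in build GRCm38.p6. The authors' own build was not given in the sources used here. The sequences read 5′ to 3′ in the direction of transcription and end at the base before the start. Capitals mark every match to the motifs searched on both strands: TATAAA (the TATA box), TGANTCA (the AP-1 site), the NF-kB consensus and the interferon-stimulated response element consensus. The motifs were settled on with these sequences in view.

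Il1a: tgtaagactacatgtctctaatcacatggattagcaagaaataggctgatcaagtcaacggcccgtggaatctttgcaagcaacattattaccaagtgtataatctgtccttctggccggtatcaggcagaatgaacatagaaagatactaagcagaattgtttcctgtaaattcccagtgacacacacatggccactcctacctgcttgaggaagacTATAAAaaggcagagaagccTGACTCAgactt
Il1b: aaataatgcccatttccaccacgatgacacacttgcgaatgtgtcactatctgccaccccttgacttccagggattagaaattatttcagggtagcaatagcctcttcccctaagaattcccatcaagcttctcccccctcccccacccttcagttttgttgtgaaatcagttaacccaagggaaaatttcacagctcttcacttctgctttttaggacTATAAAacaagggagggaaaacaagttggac
Il1rap: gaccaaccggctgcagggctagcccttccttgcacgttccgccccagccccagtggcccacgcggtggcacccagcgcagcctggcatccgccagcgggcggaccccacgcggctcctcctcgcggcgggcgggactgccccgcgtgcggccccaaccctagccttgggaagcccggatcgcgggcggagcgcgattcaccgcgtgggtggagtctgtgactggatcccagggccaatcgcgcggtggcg

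Il1a and Il1b each held a TATAAA, which began 32 and 31 bases before the start, and Il1rap held none. Il1a also held a TGANTCA that began 12 bases before the start. The Il1rap window was 74.4% G or C with 30 CG pairs, against 42.4% with 3 for Il1a and 44.4% with 2 for Il1b. All 8 genes had a RefSeq window, 11 windows in all. Among 32851 windows of this length, TATAAA occurred in 12.4%, TGANTCA in 6.75%, the NF-kB consensus in 7.25% and the interferon element in 0.828%. In the other members, a TATAAA began 175 bases before the start of Il18, a TGANTCA 141 bases before a start of Il1rn and an NF-kB match 232 bases before the start of Il1r1. A match describes the letters alone, and binding was not measured.

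**Figure D1:**
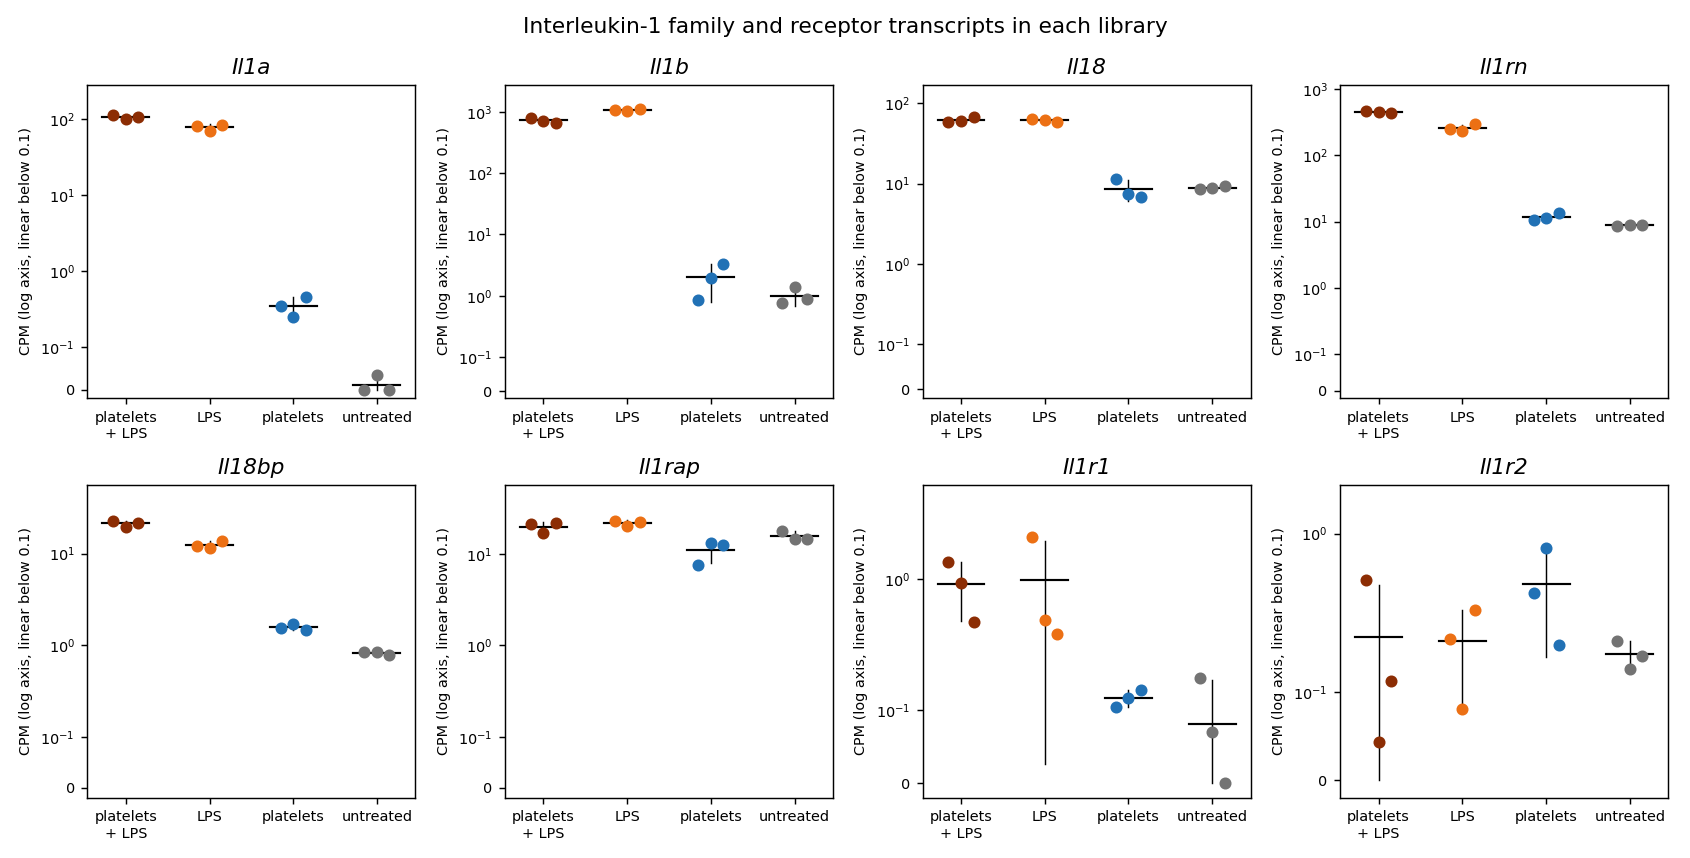
Level of each gene in each library, in CPM on an axis that is logarithmic above 0.1 and linear below, with platelet plus LPS, LPS, platelet and untreated libraries from left to right; points are libraries, the wide bar is the mean and the thin line 1 SD either way, stopped at 0. Il1a and Il1b span the widest range, from at most 3.33 CPM without LPS to at least 69.5 CPM with it, while Il1rap stays between 7.53 and 22.7 CPM and Il1r1 and Il1r2 stay at or under 2.10 CPM.

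With LPS alone, 7 of the 8 genes rose against untreated monocytes and none fell, and Il1r2 was the one that did not pass. In that comparison 50.7% of all genes tested were called, 27.7% higher and 23% lower, so being called is common there and the sizes carry the description. The median log2 fold change of the 8 genes was 3.74, against 0.01 over all genes tested. Il1a and Il1r1 passed the filter on low counts through groups given LPS, so the count of 7 and this median rest partly on the filter. None of the 8 was lower at an unadjusted p under 0.05 in edgeR, and none was called lower by DESeq2 or limma-voom. The libraries of the 2 groups did not overlap for 7 genes, all but Il1r2 and all higher, where 60.5% of all genes tested did not overlap, 32.1% higher and 28.5% lower.

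Il1a, the cytokine that is active without cleavage, had 82.2, 69.5 and 84.5 CPM with LPS, against 0, 0.0351 and 0 CPM in untreated cells. The untreated value is 1 read in 3 libraries, so the ratio of the means, 6737, has a counting interval from 1216 to 267686 (95%, exact), and only its order of size can be read. In edgeR's quasi-likelihood fit the log2 fold change was 12.25 (SE 0.27, adjusted p = 6.21e-15), and 14.07 without untreated replicate 2, which held that read.

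Il1b, the secreted cytokine of the pair, had 1067, 1032 and 1095 CPM with LPS, against 0.772, 1.37 and 0.884 CPM in untreated cells, which were 22, 39 and 26 reads. The groups were 3 orders of size apart, and the log2 fold change was 10.04 (SE 0.32, adjusted p = 2.85e-13, edgeR). Reads of Il1b cannot be told apart from those of its antisense partner Il1bos where the counting did not use strand, and no strand setting was given in the sources used here. Il1bos itself averaged 0.463 CPM with LPS against 0 CPM in untreated cells (adjusted p = 0.00959, edgeR). The same limit holds for Il1a and Gm14023, which overlaps it on the other strand.

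Il18 was already present without stimulation. It had 64.1, 62.1 and 58.9 CPM with LPS, against 8.45, 8.80 and 9.32 CPM in untreated cells, a log2 rise of 2.80 (SE 0.15, adjusted p = 2.37e-10, edgeR). Per kilobase of exon it was the highest of the 8 genes in untreated cells, at 8.59 ± 0.42 RPKM (CPM per kilobase of exon; SD, n = 3), against 0.53 ± 0.17 RPKM for Il1b. With LPS the order was turned round, with Il1b at 558 ± 16.5 RPKM and Il18 at 59.8 ± 2.53 RPKM.

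Both brakes rose with LPS as well. Il1rn had 255, 236 and 295 CPM, against 8.66, 9.05 and 8.94 CPM in untreated cells, with a log2 fold change of 4.88 (SE 0.12, adjusted p = 1.46e-14, edgeR). Il18bp had 11.9, 11.6 and 13.8 CPM with LPS, against 0.842, 0.842 and 0.782 CPM in untreated cells, with a log2 fold change of 3.91 (SE 0.17, adjusted p = 9.47e-12, edgeR). Exons of Il18bp overlap Numa1 on the other strand, and without a stated strand setting the reads of the pair cannot be told apart. Numa1 itself was lower with LPS, at 60.2 against 78.2 CPM in untreated cells (log2 fold change −0.38, adjusted p = 0.0216, edgeR).

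Of the 3 receptor genes Il1rap and Il1r1 were called, both higher with LPS. Il1rap, the signalling co-receptor shared by the interleukin-1, interleukin-33 and interleukin-36 receptors, had 22.7, 19.9 and 22.4 CPM with LPS, against 17.8, 14.6 and 14.5 CPM in untreated cells. Its log2 rise of 0.47 (SE 0.17, adjusted p = 0.0345, edgeR) missed the threshold in 8 of 21 alternative settings and was 0.09 (adjusted p = 0.7) with library size alone as the scaling. Il1r1, the signalling receptor, had 58, 12 and 7 reads with LPS, against 5, 2 and 0 reads in untreated cells, or 2.10, 0.487 and 0.381 CPM against 0.175, 0.0701 and 0 CPM. The groups did not overlap and the log2 fold change was 3.57 (SE 0.85, adjusted p = 0.00229, edgeR), with most of the reads in LPS replicate 1. Without that library the log2 fold change was 2.37 (adjusted p = 0.0341), and without untreated replicate 1 it was 4.70. Il1r2, a decoy receptor that binds the cytokine without signalling, had 0.217, 0.0812 and 0.327 CPM with LPS, against 0.210, 0.140 and 0.170 CPM in untreated cells. The Il1r2 groups overlapped, and the 95% interval of its log2 difference ran from −1.60 to 2.03, so a change of several fold either way was not detectable at this depth.

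Marker transcripts of other cells moved with LPS. Of 7 dendritic cell markers 6 were tested, 4 higher and 1 lower, and their sum was between 76.1 and 92.0 CPM with LPS and between 1.97 and 3.96 CPM in untreated cells. Most of the sum with LPS was Fscn1 and Ccr7, at means of 37.4 and 34.2 CPM, against 0.0804 and 0.314 CPM in untreated cells. With LPS and in untreated cells, Flt3 averaged 1.03 and 0.383 CPM, Zbtb46 0.977 and 0.847 CPM, and Cd209a 0.289 and 1.34 CPM. Of 7 basophil and mast cell markers 5 were tested, 2 higher and 1 lower, with sums between 104 and 107 CPM with LPS and between 1.37 and 2.56 CPM in untreated cells. Nearly all of the sum with LPS was Hdc, the histamine-forming enzyme, at a mean of 103 CPM with LPS and 0.231 CPM in untreated cells, while the more restricted markers Mcpt8, at 0.122 and 0.290 CPM, and Prss34, at 0.324 and 0.868 CPM, had lower means with LPS. Neutrophil markers, 2 higher and 2 lower of 8 tested, summed to between 282 and 351 CPM with LPS and between 379 and 407 CPM in untreated cells, with Elane at 0 with LPS and Ly6g at 0 in untreated cells. The largest part of the neutrophil sum was 1 marker, whose level is not reported here and whose mean was lower with LPS. Csf3r, at means of 58.0 and 21.7 CPM, was higher with LPS, and Retnlg, at 0.0483 and 0.498 CPM, was lower. The part of all these marker lists in the rises of the 7 genes was not tested.

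In cells that had been with platelets, LPS also raised 7 of the 8 genes, again all but Il1r2, and none fell at an unadjusted p under 0.05 in edgeR or was called lower by DESeq2 or limma-voom. Here 49.4% of all genes tested were called, 27.6% higher and 21.8% lower, and 54.8% did not overlap between the groups, 30.2% higher and 24.6% lower. Every gene but Il1r2 was without overlap, all higher. The median log2 fold change of the 8 genes was 3.30, against 0.02 over all genes. Here too Il1a and Il1r1 passed the filter on low counts through groups given LPS, and the count and median rest partly on that. The rise was 8.21 (SE 0.18) for Il1a, 8.43 (SE 0.29) for Il1b and 5.26 (SE 0.12) for Il1rn on the log2 scale, with adjusted p of 6.37e-15, 9.04e-13 and 8.3e-15 in edgeR. For Il18 it was 2.85 (SE 0.15), for Il18bp 3.75 (SE 0.15), for Il1r1 2.84 (SE 0.79) and for Il1rap 0.85 (SE 0.18), and the largest adjusted p of the 7 was that of Il1r1, 0.00699. Without platelet replicate 1 the comparison again called 7 genes, and the log2 rise of Il1rap was 0.58 (adjusted p = 0.00184, edgeR). Dendritic cell marker sums were between 87.3 and 99.7 CPM with platelets plus LPS and between 5.60 and 8.37 CPM with platelets. Most of the sum with LPS was again Fscn1 (mean 49.1 against 0.436 CPM) and Ccr7 (30.5 against 2.08 CPM). The part of these markers was again not tested.

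**Figure D2:**
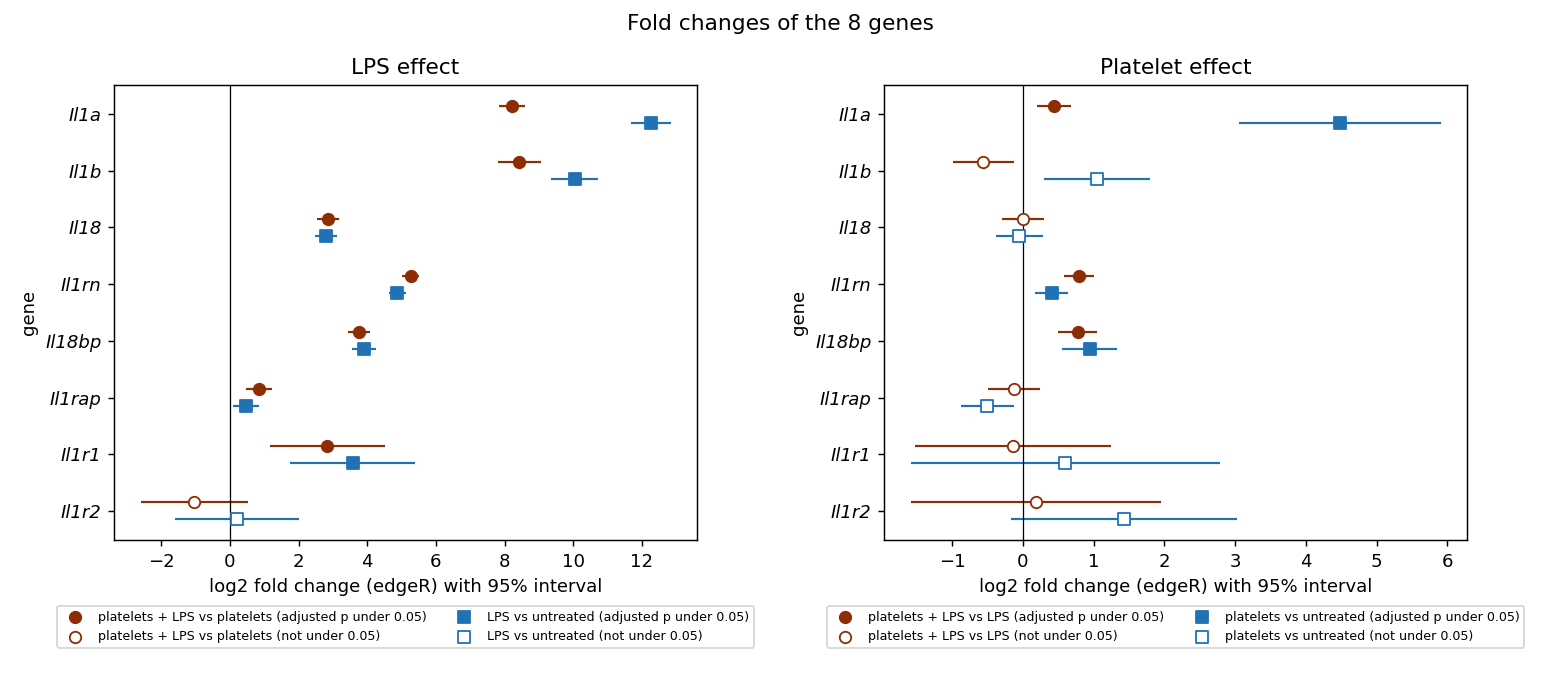
Log2 fold changes from edgeR with 95% intervals for the 8 genes, at left for LPS (with platelets, circles, above without platelets, squares) and at right for platelets (with LPS, circles, above without LPS, squares); filled symbols have an adjusted p under 0.05. At left 7 of 8 symbols are filled in both rows, and at right 3 of 8 are, for Il1a, Il1rn and Il18bp, all to the right of 0.

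The question specific to this design is what an earlier night with platelets does to the LPS response. Among monocytes given LPS, those that had met platelets had more Il1rn, Il18bp and Il1a, and 3 of the 8 genes were called, all higher. Il1b was lower in all 3 libraries without passing the test, and the Il18 ranges overlapped. In this comparison 7.28% of all genes tested were called, 4.41% higher and 2.87% lower, and the median log2 fold change was 0.09 for the 8 genes and 0.01 for all. No member was called lower in edgeR, where 1 was lower at an unadjusted p under 0.05; DESeq2 called 0 lower and limma-voom 1, Il1b. The libraries of 4 of the 8 genes did not overlap, 3 higher and 1 lower, where 27% of all genes tested did not overlap, 14.7% higher and 12.4% lower.

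Il1rn had 466, 457 and 433 CPM in platelet plus LPS libraries, against 255, 236 and 295 CPM in LPS libraries. Every platelet plus LPS library was above every LPS library, and the log2 fold change between the groups was 0.79 (SE 0.099, 1.73-fold, adjusted p = 0.000123, edgeR). The adjusted p stayed between 4.46e-11 and 0.00174 in the 21 alternative settings. Per kilobase, Il1rn stood second of the 8 genes with platelets plus LPS, at 81.7 ± 3.05 RPKM, above Il18 at 59.8 ± 4.79 RPKM. In LPS libraries it came after Il18, at 47.3 ± 5.47 RPKM against 59.8 ± 2.53 RPKM, and neither pair of ranges overlapped.

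Il18bp had 22.6, 19.5 and 21.8 CPM with platelets plus LPS, against 11.9, 11.6 and 13.8 CPM with LPS. These groups were apart by 0.78 on the log2 scale (SE 0.13, 1.71-fold, adjusted p = 0.0014, edgeR), with adjusted p of at most 0.0127 in the 21 settings. Its antisense neighbour Numa1 had 63.1 and 60.2 CPM in the same groups (log2 fold change 0.07, adjusted p = 0.837, edgeR).

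Il1a had 113, 99.5 and 107 CPM with platelets plus LPS, against 82.2, 69.5 and 84.5 CPM with LPS. The groups were apart by 0.44 on the log2 scale (SE 0.11, 1.36-fold, adjusted p = 0.0253, edgeR). The call was lost when any of 4 libraries was left out, with an adjusted p of 0.121 and 0.0748 without platelet plus LPS replicate 1 or 3, and 0.0604 and 0.13 without LPS replicate 1 or 2.

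Il1b had 786, 715 and 667 CPM with platelets plus LPS, against 1067, 1032 and 1095 CPM with LPS, and the groups did not overlap. The log2 fold change was −0.56 (SE 0.20, interval −0.99 to −0.13) and the adjusted p 0.12 in edgeR, over the threshold. All 4 groups share 1 estimate of the spread of each gene in this fit, the low platelet libraries (0.845, 1.94 and 3.33 CPM) included. Without platelet replicate 1 the adjusted p was 0.000669, with only the 2 groups compared 0.00012, and with limma-voom 0.00368; across the 21 settings the log2 fold change stayed between −0.62 and −0.50 and 5 settings called it.

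Il18 had 57.9, 59.7 and 67.2 CPM with platelets plus LPS, against 64.1, 62.1 and 58.9 CPM with LPS. The ranges overlapped, and the interval of the log2 difference ran from −0.30 to 0.29. Il1rap had 21.1, 16.9 and 21.5 CPM with platelets plus LPS, against 22.7, 19.9 and 22.4 CPM with LPS, and its interval ran from −0.50 to 0.24. Il1r1 had 1.35, 0.942 and 0.470 CPM with platelets plus LPS, against 2.10, 0.487 and 0.381 CPM with LPS, and Il1r2 had 0.509, 0.0428 and 0.117 CPM against 0.217, 0.0812 and 0.327 CPM. Neither receptor passed the test (adjusted p = 0.942 and 0.939, edgeR), and with between 1 and 58 reads a library their intervals spanned more than 2 log2 units.

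Transcripts of other cells moved in the same comparison. Of 14 platelet and megakaryocyte markers 11 were tested, and 7 were higher and 1 lower with platelets plus LPS than with LPS; Gng11 averaged 64.6 and 2.01 CPM, while Gp1bb was at 0 in both groups. The summed level of that list, which Pf4 dominates, was between 3730 and 4001 CPM with platelets plus LPS and between 3906 and 4719 CPM with LPS. Of 6 erythroid markers 4 were tested and all were higher, and their sum was between 7.08 and 9.35 CPM with platelets plus LPS and between 0.0362 and 0.650 CPM with LPS, with Alas2 at 0 in the first group. Of 12 neutrophil markers 8 were tested, with 0 higher and 1 lower, and their sum was between 214 and 254 CPM with platelets plus LPS and between 282 and 351 CPM with LPS, with Ly6g at 0 in the first group and Elane in the second. The largest part of that sum was 1 marker, whose level is not reported here and whose mean was lower with platelets plus LPS. Csf3r, at means of 67.1 and 58.0 CPM, and S100a8, at 24.2 and 17.8 CPM, were higher with platelets plus LPS. Of 7 basophil and mast cell markers 5 were tested, with 2 higher and 0 lower. Mcpt8 averaged 1.77 CPM with platelets plus LPS and 0.122 CPM with LPS, and Prss34 4.15 and 0.324 CPM. Hdc, which dominates that list, averaged 80.4 and 103 CPM. The part of these lists in the 4 differences was not tested.

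Without LPS, Il1a, Il18bp and Il1rn were higher in cells kept with platelets than in untreated cells, at much lower levels. Of the 8 genes 3 were called, all higher, where 6.49% of all genes tested were called, 3.63% higher and 2.86% lower. The median log2 fold change was 0.77 for the 8 genes and 0 for all. No member was called lower by edgeR, DESeq2 or limma-voom, and 1 was lower at an unadjusted p under 0.05 in edgeR. The libraries of 4 genes did not overlap, 3 higher and 1 lower, where 25.1% of all genes tested did not overlap, 12.5% higher and 12.6% lower. The count ranged from 0 to 5 over the 21 settings: limma-voom called 1 of the 8 genes and a fit of only the platelet and untreated libraries called 0 of the 5 it tested, of which 3 had an unadjusted p under 0.05.

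Il1a had 10, 8 and 16 reads in platelet libraries, against 0, 1 and 0 reads in untreated libraries, or 0.352, 0.250 and 0.455 CPM against 0, 0.0351 and 0 CPM. Reads were thus found in every platelet library, at a level far below that with LPS, and the ratio of the means was 30.2 with a counting interval from 5.16 to 1250. The log2 fold change of the fit was 4.48 (SE 0.67, adjusted p = 0.000612, edgeR), was called in all 20 settings that could test it, and was 4.51 without platelet replicate 1. In the fit of only the platelet and untreated libraries Il1a did not pass the filter, which it passed otherwise through the groups given LPS. The log2 fold change was 6.30 without untreated replicate 2, which held the 1 untreated read, and 4.03 without untreated replicate 3.

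Il18bp had 1.55, 1.72 and 1.48 CPM in platelet libraries, against 0.842, 0.842 and 0.782 CPM in untreated ones, which were 44, 55 and 52 reads against 24, 24 and 23. The groups did not overlap, and the log2 fold change was 0.94 (SE 0.18, 1.92-fold, adjusted p = 0.00537, edgeR). It was 0.98 without platelet replicate 1, and the adjusted p was 0.0778 with limma-voom and 0.0975 in the fit of those 2 groups alone. Numa1 moved the other way without passing the test, at 62.5 CPM in platelet and 78.2 CPM in untreated libraries (adjusted p = 0.158, edgeR).

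Il1rn had 10.6, 11.2 and 13.5 CPM in platelet libraries, against 8.66, 9.05 and 8.94 CPM in untreated ones. The gap was small but without overlap, with a log2 fold change of 0.41 (SE 0.11, 1.32-fold, adjusted p = 0.0413, edgeR). The call was lost in 13 of the 21 settings, with an adjusted p of up to 0.151; without platelet replicate 1 the adjusted p was 0.0108.

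Il1b had 0.845, 1.94 and 3.33 CPM in platelet libraries, against 0.772, 1.37 and 0.884 CPM in untreated ones, and the groups overlapped through platelet replicate 1. The log2 fold change was 1.05 (SE 0.35, adjusted p = 0.0948, edgeR). Without that library it was 1.42 (adjusted p = 0.000975), and without platelet replicate 3 it was 0.49 (adjusted p = 0.332). Platelet replicate 1 had the lowest Il1b of its group beside the highest platelet marker sum, 6347 CPM against 3917 and 3515 CPM in replicates 2 and 3, and a mitochondrial share of 0.886% against 0.600% and 0.566%. Pf4 dominates that sum in untreated cells too, so the sum does not measure the platelets present.

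Il1rap was lower in every platelet library, with 7.53, 13.1 and 12.4 CPM against 17.8, 14.6 and 14.5 CPM in untreated ones. Its log2 fold change of −0.51 (SE 0.18) had an adjusted p of 0.109 in edgeR, and replicate 1 was again the extreme, since without it the value was −0.28 (adjusted p = 0.3). Il18 had 11.4, 7.50 and 6.86 CPM in platelet libraries, against 8.45, 8.80 and 9.32 CPM in untreated ones, and the platelet range enclosed the untreated range. It did so through replicate 1 alone. The log2 fold change of Il18 was −0.05 (adjusted p = 0.894, edgeR), and −0.28 (adjusted p = 0.16) without that library. Il1r1 and Il1r2 had between 3 and 26 reads in platelet libraries and between 0 and 6 in untreated ones, and neither passed the test (adjusted p = 0.798 and 0.312, edgeR).

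Marker transcripts of other cells also differed here. Of the 11 platelet markers tested 6 were higher and 1 lower in platelet libraries, with sums between 3515 and 6347 CPM against between 3790 and 4498 CPM in untreated ones, and Gp5 was at 0 in both groups. Pf4 dominated the sums of both groups, while Gng11 averaged 99.5 CPM in platelet libraries and 1.81 CPM in untreated ones. Basophil and mast cell markers, 5 of 7 tested and 4 higher, summed to between 7.85 and 9.71 CPM with platelets and between 1.37 and 2.56 CPM without. Dendritic cell markers, 6 of 7 tested and 3 higher, summed to between 5.60 and 8.37 CPM with platelets and between 1.97 and 3.96 CPM without, and erythroid markers, 4 of 6 tested and 3 higher, to between 11.9 and 24.5 CPM and between 1.12 and 1.61 CPM. Neutrophil markers, 0 higher and 1 lower of 8 tested, summed to between 216 and 253 CPM with platelets and between 379 and 407 CPM without, with Mpo at 0 in platelet libraries and Ly6g at 0 in untreated ones. The largest part of the neutrophil sum was 1 marker, whose level is not reported here and whose mean was lower with platelets. Csf3r, at means of 27.9 and 21.7 CPM, and S100a8, at 24.2 and 16.4 CPM, were higher with platelets, and Ngp, at 3.91 and 4.32 CPM, was lower. The part of all these marker lists in the reads of Il1a, Il18bp and Il1rn was not tested.

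The interaction is the platelet difference with LPS minus that without, on the log2 scale. It was called for 1 of the 8 genes, Il1a, and negative, where 1.58% of all genes tested were called, 0.859% higher and 0.722% lower. For Il1a it was −4.04 (SE 0.71, interval −5.55 to −2.54, adjusted p = 0.00785, edgeR), from the 0.44 with LPS and the 4.48 without it, the second of which rests on 1 untreated read. With limma-voom it was −3.40 with an adjusted p of 0.0538, and leaving out single libraries it ran from −5.86, without untreated replicate 2, to −3.59 (adjusted p of at most 0.0431). Il1b was next, at −1.61 (SE 0.40, adjusted p = 0.0648, edgeR) and −1.99 (adjusted p = 0.000234) without platelet replicate 1, but −1.05 without platelet replicate 3 (adjusted p of at most 0.207 leaving out single libraries); its platelet difference was negative with LPS and positive without. For Il1rn the interaction was 0.38 (interval 0.07 to 0.70, adjusted p = 0.334, edgeR) and for Il18bp −0.17 (interval −0.64 to 0.31, adjusted p = 0.901). No member was called higher in edgeR, DESeq2 or limma-voom, and 1, Il1rn, was higher at an unadjusted p under 0.05. The median over the 8 genes was −0.45, and over all genes 0.01.

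The balance of brake and cytokine was described by the ratio of Il1rn to Il1b reads in the same library, which does not depend on library scaling. It was 0.593, 0.639 and 0.650 with platelets plus LPS, against 0.238, 0.228 and 0.269 with LPS, so that the lowest of the first group was above the highest of the second. The means were 0.627 ± 0.030 and 0.245 ± 0.021 (SD, n = 3 each). Without LPS the antagonist's reads outnumbered those of Il1b in every library, by 12.5, 5.77 and 4.04 with platelets and by 11.2, 6.62 and 10.1 in untreated cells. The means of those groups were 7.45 ± 4.49 and 9.32 ± 2.41 and their ranges overlapped. The ratio of Il18bp to Il18 reads, looked at after the values were seen, was 0.390, 0.327 and 0.324 with platelets plus LPS, against 0.186, 0.187 and 0.235 with LPS. It was 0.136, 0.229 and 0.216 with platelets and 0.0996, 0.0956 and 0.0839 in untreated cells. In both pairs the platelet libraries were all above their counterparts. These ratios are descriptions, with no test, and being ratios of reads they are not ratios of molecules, since the genes differ in length.

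**Figure D3:**
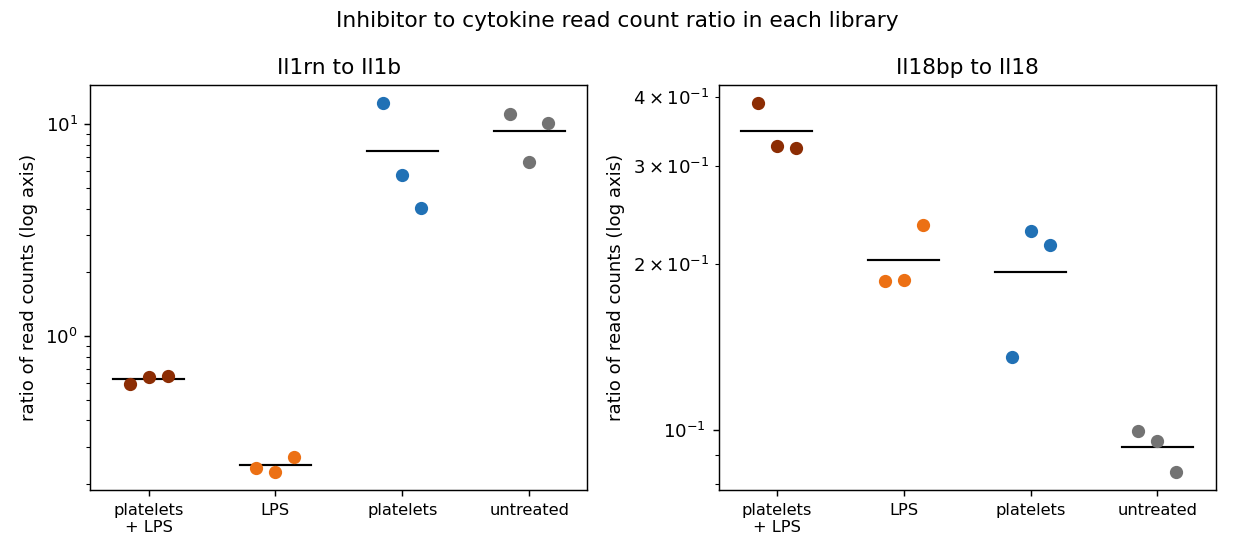
Ratio of Il1rn to Il1b reads (left) and of Il18bp to Il18 reads (right) in each library, on log axes, with platelet plus LPS, LPS, platelet and untreated libraries from left to right; points are libraries and bars group means. With LPS, the platelet libraries lie above the others in both panels, at 0.593 to 0.650 against 0.228 to 0.269 at left and at 0.324 to 0.390 against 0.186 to 0.235 at right.

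Across the groups Il1b led the order of the 8 genes per kilobase with LPS, and Il18 led it without. With platelets plus LPS it ran from Il1b at 379 RPKM through Il1rn at 81.7, Il18 at 59.8 and Il1a at 54.1 RPKM to Il18bp at 7.04 and Il1rap at 1.75 RPKM. Il18 and Il1a overlapped there, and Il1r1 and Il1r2, at 0.14 and 0.12 RPKM, did too. With LPS, Il1rn and Il1a overlapped, at 47.3 and 39.9 RPKM, and Il18bp and Il1rap followed at 4.12 and 1.91 RPKM. With platelets, Il18 at 8.33 and Il1rn at 2.12 RPKM led, Il1b and Il1rap overlapped at 1.07 and 0.97 RPKM, and Il18bp followed at 0.52 RPKM. In untreated cells Il18 at 8.59 RPKM led, Il1rn and Il1rap overlapped at 1.61 and 1.38 RPKM, and Il1b was at 0.53, Il18bp at 0.27 and Il1a at 0.0059 RPKM. Exon lengths are those of GENCODE M21, which may not be the annotation the reads were counted on.

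Of the other ligands of the family, 1 of 6 was tested, Il36g, which encodes interleukin-36 gamma. It averaged 10.3, 19.2, 0.22 and 0.23 CPM in platelet plus LPS, LPS, platelet and untreated cells. Il36g rose with LPS by 6.35 on the log2 scale (SE 0.29, adjusted p = 2.14e-11, edgeR), and was lower with platelets plus LPS than with LPS, at a log2 fold change of −0.91 (SE 0.19, 1.87-fold, adjusted p = 0.00797). The ligands Il33, Il36a, Il36b, Il36rn and Il1f10 were not tested for lack of reads; Il36a reached 25 reads in an LPS library and had none without LPS, and the last 3 had no read in any library.

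Of the other receptors 4 of 7 were tested. Il1rl2, the interleukin-36 receptor, averaged 5.90, 8.88, 3.60 and 1.53 CPM in platelet plus LPS, LPS, platelet and untreated cells. It rose with LPS (log2 2.53, SE 0.27, adjusted p = 8.8e-07) and with platelets (log2 1.23, SE 0.27, adjusted p = 0.0123), and its interaction was −1.82 (SE 0.37, adjusted p = 0.0196), all in edgeR. Sigirr, an inhibitory receptor of the family, fell with LPS, to 0.54 CPM against 1.48 CPM in untreated cells, a log2 fold change of −1.48 (SE 0.42, adjusted p = 0.00874, edgeR). With platelets plus LPS against LPS none of the 4 was called in edgeR, DESeq2 or limma-voom, and 1 had an unadjusted p under 0.05 in edgeR. Il1rl1 and Il18rap, which encode chains of the interleukin-33 and interleukin-18 receptors, averaged under 1 CPM in every group and were not called, and Il18r1, the other interleukin-18 receptor chain, had at most 2 reads in a library.

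The genes that process and release interleukin-1 beta and interleukin-18 were nearly all higher with LPS, 8 higher and 1 lower of 9 tested both with and without platelets. Of all genes tested, 27.7% were called higher and 23% lower with LPS against untreated cells, and 27.6% higher and 21.8% lower with platelets plus LPS against platelets. Without platelets the 4 with the smallest p were Casp4 (log2 5.65), an LPS-sensing caspase, Nlrp3 (3.56) and Mefv (3.04), inflammasome sensors, and Casp1 (2.22), the converting enzyme. Pycard, the inflammasome adaptor, was the one that fell, with 58.2 CPM against 77.7 CPM in untreated cells, a log2 fold change of −0.42 (SE 0.12, adjusted p = 0.0108, edgeR), and was picked for naming once its values were known. With platelets alone Pycard was the one gene of 9 called, and higher, at 105 against 77.7 CPM (log2 0.43, adjusted p = 0.0483, edgeR); 4 were higher at an unadjusted p under 0.05, DESeq2 called 2 and limma-voom 0. Where platelets came before LPS, 0 of the 9 were called against LPS alone by edgeR, DESeq2 or limma-voom, with 1 at an unadjusted p under 0.05 in edgeR.

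All 14 genes that carry or restrain the signal from the receptor were tested. With LPS 6 rose and 2 fell in edgeR, where 50.7% of all genes were called (27.7% higher and 23% lower); DESeq2 called 6 higher and 4 lower. The 4 with the smallest p were all higher. They were Peli1 (log2 3.80), a ubiquitin ligase, Myd88 (2.28), the adaptor, and Irak3 and Irak2 (3.41 and 2.92). The last 2 belong to the receptor-associated kinase family, Irak3 as an inhibitory member. Peli2 and Tab1 fell, with log2 fold changes of −2.42 and −0.30, and were likewise picked for naming once their values were known. With platelets plus LPS against platelets 8 rose and 2 fell in edgeR, where 49.4% of all genes were called (27.6% higher and 21.8% lower), and DESeq2 called 8 higher and 3 lower. With platelets plus LPS against LPS 2 were lower and 0 higher, Irak2 at 292 against 372 CPM (log2 −0.35, SE 0.084, adjusted p = 0.0195, edgeR) and Tab2, a kinase adaptor, at 81.3 against 110 CPM (log2 −0.44, SE 0.12, adjusted p = 0.0442, edgeR). In that comparison 1 of the 14 was higher at an unadjusted p under 0.05 and DESeq2 and limma-voom called 0 higher. With platelets alone edgeR called 0 of 14, with 5 at an unadjusted p under 0.05, DESeq2 called 1 and limma-voom 0. The interaction of Irak2 was −0.64 (SE 0.12, adjusted p = 0.0141, edgeR).

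**Figure D4:**
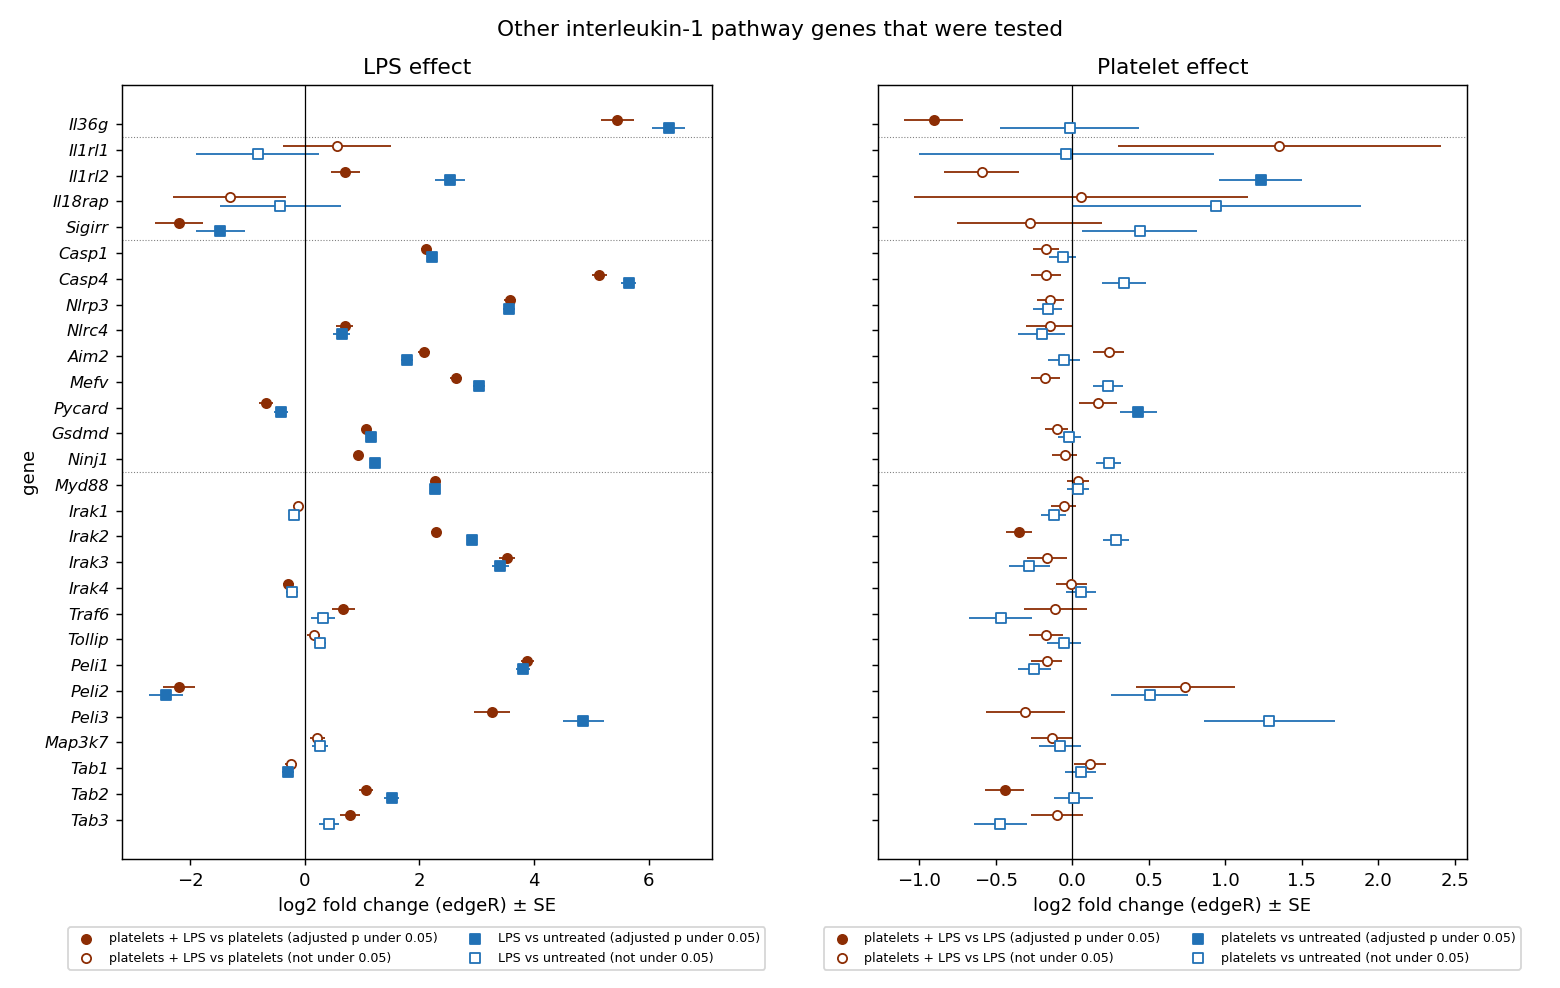
Log2 fold changes from edgeR, with bars of 1 SE either way, for the 28 tested genes of the ligand, receptor, processing and signalling lists (separated by dotted lines), at left for LPS and at right for platelets, with the same symbols as for the 8 genes. At left most processing genes lie to the right of 0, up to 5.65 for Casp4 without platelets, and at right the filled symbols are few, among them Il36g at −0.91 with LPS and Il1rl2 at 1.23 without.

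Genes of like pattern were sought among the genes tested, leaving out the 8 members and genes with placeholder names (Gm, Rik or Ensembl identifiers). The genes most like each member were those with the smallest root mean square difference of log2 CPM over the 12 libraries, each gene centred on its own mean. For Il1a these were Bcl2a1a at 0.53, Ifi205 at 0.66 and Il27 at 0.74, and for Il1b they were Il27 at 0.52, Gbp3 at 0.52 and Adamts4 at 0.56. Il1a and Il1b themselves differed by 0.76, on patterns with an SD of 4.76 and 4.89. Gpr84 at 0.23 was among the nearest to Il1rn, after H2-T24 at 0.19 and before Shbg at 0.24. Il18 was nearest to Slfn2 at 0.10, Nfkbia and Nfkbib at 0.15, and Il18bp to Tagap at 0.20, Ass1 at 0.22 and Snn at 0.23. For Il1rap they were Wac at 0.11, Fbxo38 at 0.12 and Rhbdd1 at 0.12, on a pattern with an SD of 0.46. The nearest to Il1r1 were Pcx at 0.49, Fam13a at 0.57 and Lix1 at 0.57, and to Il1r2 Pkdcc, Xlr4c and Fan1, each at 0.58, values that are large beside the SD of 1.46 and 0.83 of these thinly counted genes. Gpr84, a receptor for medium-chain fatty acids, averaged 597, 342, 15.5 and 8.42 CPM in platelet plus LPS, LPS, platelet and untreated cells, and Nfkbia, the NF-kB inhibitor, averaged 1837, 1951, 300 and 254 CPM.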

How the data were processed

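Bulk RNA was sequenced in 12 libraries, grouped by their titles. Per the labels, a SMARTer low input kit amplified the RNA before Nextera XT library preparation. Tools listed in the submitters' processing notes, with no role for each, are STAR 2.7.9a, Salmon 1.5.2, fastp 0.23.1 and, from Subread 2.0.1, featureCounts. Values in the deposited files are raw counts of reads per gene, whole numbers that the authors did not normalize; the genome build, annotation and strandedness of counting were not given in the sources used here.

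Genes were filtered with filterByExpr, TMM factors (trimmed mean of M-values) were computed, and counts were fitted with the quasi-likelihood test of edgeR 4.0.16 in R 4.3.3, with 4 group means over 12 libraries, 8 residual degrees of freedom and a common dispersion of 0.0171. Two-sided p-values from 13151 genes went through the Benjamini-Hochberg adjustment, and a gene was called at an adjusted p under 0.05. CPM use the scaled library size, and RPKM divide them by GENCODE M21 exon length. The filter asked for about 0.365 CPM; Il1a reached this in every library of a group only with LPS, Il1r1 only with platelets plus LPS and Il1r2 in 3 scattered libraries, so the 8 genes passed partly through groups where they are high. Counting intervals are 95% and, like the floor of 3 counts, cover counting error only, since PCR reads are not independent molecules. Promoter windows come from RefSeq. Alternatives were 3 other scalings, no filter or a stricter one, a replicate block, DESeq2 1.42.0, voom of limma 3.58.1, fits restricted to the compared groups, and omission of each library. The procedure was run on simulated counts for platelets against untreated only. That simulation had no LPS effect and no deviant library, so it does not cover those features of the data. All 8 genes are named, up to 4 called genes of each pathway list by smallest p, and 3 genes of nearest pattern per member. The level of 1 marker gene is not reported here. The members and lists were chosen with earlier results of these data known.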

Additional observations from a re-analysis of the deposited data

Results flagged for a closer look

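The platelet difference of Il1a was called different with and without LPS in edgeR, but not in limma-voom (adjusted p = 0.0538). By a test of the difference itself, the edgeR interaction term, it was −4.04 on the log2 scale (adjusted p = 0.00785): 1.36-fold higher with platelets plus LPS than with LPS, in 3 of 3 libraries, and from 34 reads in the 3 platelet libraries against 1 read in the 3 untreated libraries. The sizes with and without LPS are on levels far apart, a mean of 107 and 78.8 CPM in the first case and 0.353 and 0.0117 CPM in the second. Il1a passed the filter through the groups given LPS, and did not pass it with only the platelet and untreated libraries. The explanation was not tested.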

How the results depend on the processing

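Of 814 values of single genes under 21 alternative settings, 753 kept their direction and side of the threshold, 28 lost the call, 11 gained it and 22 changed sign, all 22 for differences that were not called. Counts of members called stayed within 1.5 times except as follows. Platelets against untreated went to 5 with no filter, 1 with limma-voom and 0 with only the 2 groups compared, where Il1a did not pass the filter, against 3; the interaction went to 2 with no filter, 0 with limma-voom (3 at an unadjusted p under 0.05) and 2 without platelet replicate 1, against 1. Leaving out each library gave between 2 and 4 members for platelets against untreated, 6 and 7 for LPS against untreated, 2 and 4 for platelets plus LPS against LPS, 7 and 8 for platelets plus LPS against platelets, and 1 and 2 for the interaction. The mean ratio of Il1rn to Il1b reads was between 0.616 and 0.644 with platelets plus LPS, 0.233 and 0.254 with LPS, 4.91 and 9.16 with platelets and 8.37 and 10.7 in untreated cells.

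Signs changed as follows. Il18 in platelets plus LPS against LPS went to 0.013 with no filter, 0.00037 with a stricter filter and 0.0017 with the replicate block. In that comparison Il1r1 went to 0.084 with the block and 0.086 with limma-voom, and Il1r2 to −0.20 with limma-voom. Il1r2 in LPS against untreated went to −0.16 with library size alone. Leaving out single libraries gave a range that crossed 0 for Il18 in platelets against untreated (−0.28 to 0.090), in platelets plus LPS against LPS (−0.068 to 0.041) and in the interaction (−0.091 to 0.27), for Il1r2 in LPS against untreated (−0.19 to 0.61) and in platelets plus LPS against LPS (−1.27 to 0.64), and for Il1r1 with platelets plus LPS against LPS (−0.52 to 1.07) and in the interaction (−1.86 to 0.47). The cause was not tested.

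No pairing by replicate number was visible: 18 pairs of the same number had correlated deviations of −0.23 to 0.14, 1 of them over 0.1, and 2 of 12 libraries correlated best with their own number. With 3 libraries a group, this cannot decide whether libraries of the same number share a source. With the replicate block the adjusted p was 0.0599 for Il1rn in platelets against untreated and 0.0544 for Il1rap in LPS against untreated, and 118 rather than 208 genes had a called interaction. Over all genes, platelets against untreated called 1291 with DESeq2, 415 with only the 2 groups and between 410 and 1027 leaving out libraries, against 854. Platelets plus LPS against LPS called between 557 and 1640 leaving out libraries, the highest without platelet replicate 1, against 957, and the interaction 371 with no filter, 403 with DESeq2 and between 87 and 361 leaving out libraries. Scaling by library size alone shifted the median of all genes by −0.38 in LPS against untreated (2133 higher and 5975 lower, against 3640 and 3021) and by −0.36 in platelets plus LPS against platelets (2194 and 5749, against 3627 and 2871); upper-quartile factors shifted them by −0.20 and −0.24. Depth limits Il1r1 and Il1r2, with at most 58 reads in a library, and Il1a without LPS.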
